A study of Homo sapiens with 6 samples.

Results

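The genes described here encode the proteins of the cytosolic ribosome, the factors that start and drive translation, and the nucleolar proteins that build ribosomes. They were chosen by gene symbol among the protein-coding genes of the deposited table: 46 of the 5681 listed genes met the rule. Of these 46 genes, 29 encode ribosomal proteins (18 of the large subunit and 11 of the small subunit), 6 carry initiation factor symbols, 1 encodes an elongation factor (EEF2) and 10 carry symbols of ribosome biogenesis. In the GENCODE 29 annotation, 204 protein-coding genes meet the same rule, and those outside the table were not analysed here. They are 86 ribosomal protein, 56 initiation factor, 16 elongation and termination factor and 46 biogenesis genes, so most of each group is not listed. The results below describe the listed genes only.

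HT-29, an established human colorectal cancer cell line, gave 3 libraries from cells carrying a Scramble hairpin (genotype labelled WT) and 3 from cells carrying an OGT hairpin (shOGT, labelled OGT knock down). OGT is the enzyme that attaches single N-acetylglucosamine sugars to proteins in the nucleus and cytosol. Both groups are the same cell line under 1 labelled treatment, colorectal tumor growth, so the hairpin is the labelled difference between them. The study's materials list 2 OGT hairpins without naming the one in these libraries. Its methods say for the work as a whole that measurements came from distinct samples. They do not say whether the RNA-seq libraries of a group were separate cultures. The p-values below therefore set the group difference against a spread between these libraries that may be technical. Reads per gene, scaled with a single factor for each library and not by gene length, gave the normalized counts used throughout.

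The ribosome is made of a small subunit, which reads the mRNA, and a large subunit, which joins amino acids. In mammals the mRNAs of ribosomal proteins and of several translation factors begin with a 5′ terminal oligopyrimidine tract, a C followed by further pyrimidines, through which the mTORC1 pathway and the protein LARP1 adjust their translation and stability. Ribosomal RNA is transcribed by RNA polymerase I in the nucleolus, and small nucleolar RNAs (snoRNAs), many of them released from introns of ribosomal protein genes and of noncoding host genes, guide its chemical modification. Ribosome production is a large cost to proliferating tumour cells, and MYC is known to drive it.

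Every listed gene had passed 2 limits in the authors' own comparison, a change of at least 2-fold and an adjusted p under 0.05, so that a listed gene had to differ. OGT itself was 9628, 11638 and 11620 normalized counts in Scramble and 484, 621 and 537 in shOGT, as the labels state (log2 fold change −4.32, adjusted p = 1.59e-12, limma). The libraries held 4145921 to 4504303 recovered reads on the listed genes in Scramble and 3302558 to 3471647 in shOGT. Of the 27 cell type markers written for the check, 8 are listed; EPCAM, CDH1, PTPRC, COL1A1 and VWF are among those that are not. Among the colon epithelial ones, KRT20 and KRT19 were higher in shOGT (log2 fold change 2.69 and 1.39) and LGALS4 and VIL1 lower (−1.97 and −1.12). Among the remaining markers, LYZ, abundant in both groups, rose from 8166 to 16442 normalized counts (1.01, and below 2-fold without Scramble library 2, Scramble library 3 or shOGT library 4). PECAM1 rose from 47.5 to 168 and ITGAM fell from 48.7 to 10.5, while PDGFRB reached 13.8 in shOGT against 0 to 1.80 per Scramble library. The part of these markers in the results below was not tested, and in bulk RNA a change in the share of a cell type and a change in RNA per cell cannot be told apart.

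All 29 listed ribosomal protein genes were lower in OGT-depleted cells, and the fall ranged from barely past 2-fold to more than 7-fold. The shOGT mean was between 13.3% and 49.2% of the Scramble mean, with a median of 43.2%. By limma on log2(normalized count + 1), 29 of 29 were called lower (absolute log2 fold change over 1, Benjamini-Hochberg adjusted p under 0.05), and their largest adjusted p was 1.60e-05. Among all 5671 genes tested, 99.4% were called in either direction, 47.2% lower and 52.2% higher. Being called therefore says nothing about these genes, and the direction and size are what the table adds. Their median log2 fold change was −1.21, beside 1.05 for all genes tested and −1.55 for all genes called lower. The 2-fold limit leaves few genes between −1 and 1, so the median over both directions describes no typical gene. Most of the ribosomal protein genes thus lay near the lower limit of the table: 23 of 29 had a log2 fold change above −1.5. The 18 large subunit genes had a median of −1.20 and the 11 small subunit genes a median of −1.33.

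**Figure D1:**
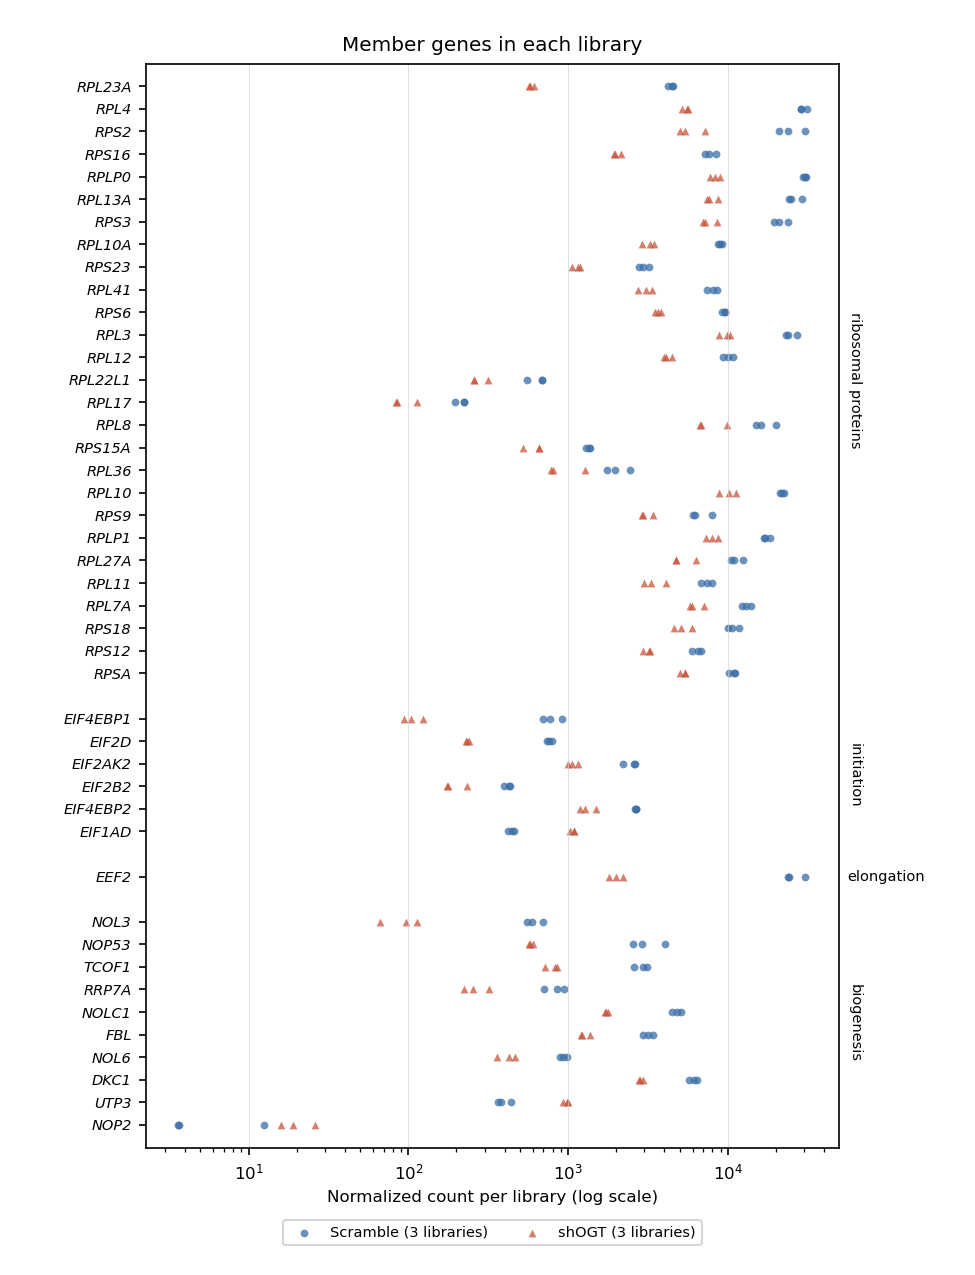
Normalized counts of 44 of the 46 genes in each of the 6 libraries, on a logarithmic axis. Each row is a gene, circles are the 3 Scramble libraries and triangles the 3 shOGT libraries. The 27 ribosomal protein genes drawn (top block) and EEF2 lie to the left in shOGT, and only EIF1AD, UTP3 and NOP2 lie to the right.

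The ribosomal protein gene that fell most was RPL23A, which encodes a protein beside the exit of the nascent chain and lies on chromosome 17 of GRCh38 from 28719393 to 28724359. It was 4553, 4440 and 4217 normalized counts in Scramble and 614, 577 and 568 in shOGT (log2 fold change −2.91, SE 0.08, where SE is the standard error of the fit). RPL4, whose product lines the exit tunnel, was 31245, 28629 and 28438 in Scramble and 5516, 5593 and 5160 in shOGT (log2 fold change −2.44, SE 0.08). In both genes the libraries of each group lay close together and far from the other group.

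RPS2, a small subunit protein near the entry of the mRNA channel, was 30251, 23755 and 20835 normalized counts in Scramble and 7228, 5367 and 5016 in shOGT (log2 fold change −2.09, SE 0.14). Its libraries were more spread, with Scramble library 1 and shOGT library 4 highest, yet the groups stayed apart. RPS16, another small subunit protein, was 8397, 7581 and 7136 in Scramble and 1968, 1946 and 2148 in shOGT (−1.93, SE 0.09). RPLP0, the base of the stalk that recruits elongation factors to the large subunit, was 30743, 30135 and 29318 in Scramble and 8293, 7692 and 8970 in shOGT (−1.86, SE 0.09). RPLP1, its acidic partner in the stalk, fell less, from 18259, 16957 and 16756 to 7993, 7322 and 8683 (−1.12, SE 0.09). Members of the same stalk were thus lowered by different amounts, 27.7% of the Scramble mean remaining for RPLP0 and 46.2% for RPLP1.

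RPL13A, which also takes part in silencing inflammatory mRNAs, was 28888, 24812 and 23955 in Scramble and 8634, 7386 and 7658 in shOGT (log2 fold change −1.71). RPS3, which also acts in DNA repair, followed with 35.5% of the Scramble mean left. A middle group held RPL10A (−1.48), RPS23 (−1.39), RPL41 (−1.39), RPS6 (−1.38), RPL3 (−1.36), RPL12 (−1.26) and RPL22L1 (−1.21). RPS6, the substrate of the S6 kinases, was 9574, 9633 and 9195 in Scramble and 3628, 3490 and 3797 in shOGT. RPL3 shapes the peptidyl transferase centre, and RPL22L1 is the paralog of RPL22.

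Further ribosomal protein genes were close to a 2-fold fall. Their log2 fold changes were −1.19 for RPL17, −1.14 for RPL8, −1.13 for RPS15A and RPL36, −1.12 for RPL10, RPS9 and RPLP1, −1.11 for RPL27A, −1.10 for RPL11, −1.06 for RPL7A, −1.05 for RPS18, −1.03 for RPS12, and −1.02 for RPSA. RPL11, which binds MDM2 when ribosome assembly fails, was 7952, 7402 and 6733 in Scramble and 4123, 3277 and 2972 in shOGT. RPL10, which joins the large subunit late in its assembly, was 22568, 21637 and 21206 in Scramble and 10133, 8816 and 11285 in shOGT. Neighbours in this order differed by less than their standard errors, which ran from 0.08 for RPSA to 0.17 for RPL17, so their order lay within the error.

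In none of the 29 genes did the groups overlap, which also held for 99.5% of all genes tested. With 3 libraries against 3 an exact two-sided permutation test of 1 gene cannot go below p = 0.1, and each of the 46 genes reached that value.

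Together the 29 listed ribosomal protein genes held 9.51%, 8.81% and 8.57% of the normalized counts on listed genes in Scramble. In shOGT they held 3.92%, 3.21% and 3.36%. The mean share was 8.96% ± 0.492 in Scramble and 3.50% ± 0.374 in shOGT (SD, n = 3 each), and their summed count was 2.72-fold higher in Scramble. All 46 genes together held 10.4% ± 0.578 and 3.90% ± 0.385 (SD, n = 3 each). By normalized count per kilobase of gene model, 6 ribosomal protein genes were among the 10 highest listed genes in Scramble and 0 in shOGT; among the 50 highest there were 20 and 9. RPL13A passed from rank 3 to rank 30 on this scale and RPLP0 from rank 8 to rank 58. These ranks were taken only among genes past the fold limit of the table. The ribosomal protein genes passed it downward, while 52.2% of all genes tested were called higher. Given that direction, the limit itself favours a loss of rank and sets a least size for the summed fall. Neither therefore adds to the falls of the single genes. The level per kilobase in Scramble spanned 86.8 for RPL17 to 10927 for RPL13A.

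The libraries of a group differed from each other in the same direction for most ribosomal protein genes. Scramble library 1 was the highest of its group in 25 of 29 (86.2%), beside 44.3% of all genes tested, and Scramble library 3 was the lowest in 26 of 29. In shOGT, library 4 was the highest in 19 of 29 (65.5%), beside 37.9% of all genes tested. Relative to each gene's Scramble mean, the median over the 29 genes was 107%, 99.2% and 93.3% in Scramble, against 44.5%, 39.0% and 40.1% in shOGT. The spread within a group was thus small beside the distance between groups, but enough to decide calls close to the 2-fold limit. Without Scramble library 1, 24 of the 29 were still called lower, and RPS9, RPS18, RPS12 and RPSA were among those that were not, each then just short of 2-fold. Without shOGT library 5 the count was 25, with RPL7A, RPS12 and RPSA among those no longer called. Without shOGT library 6 it was 26, with RPL11 and RPS18 among those no longer called. The matching shares of all genes tested are not given here, so these losses cannot be read as particular to ribosomal protein genes.

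**Figure D2:**
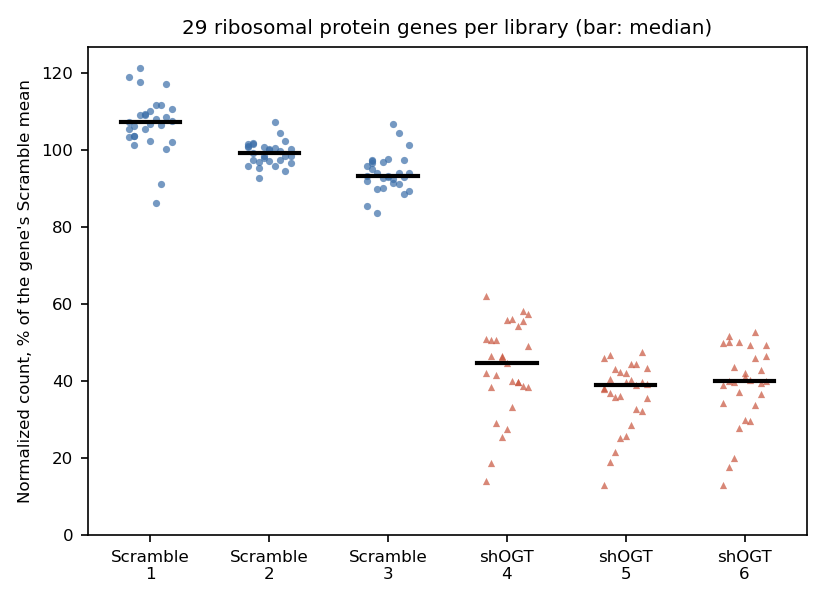
Normalized count of each of the 29 ribosomal protein genes as a percent of that gene's Scramble mean, for the 6 libraries; points are genes and black bars are medians. The Scramble medians lie between 93.3% and 107% and the shOGT medians between 39.0% and 44.5%, and the lowest points in shOGT, at 12.9% to 13.9%, are RPL23A.

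EEF2, the GTPase that moves the ribosome along the mRNA by 1 codon, was the most lowered of the 46 genes. It lies on the minus strand of chromosome 19 of GRCh38, from 3976056 to 3985469. It was 30399, 23944 and 23857 normalized counts in Scramble and 2217, 1986 and 1796 in shOGT, so that 7.67% of the Scramble mean remained (log2 fold change −3.70, SE 0.11, adjusted p = 5.83e-12, limma). Per kilobase it ranked 14th of the listed genes in Scramble and 360th in shOGT. The fold limit of the table favours such a loss of rank for a lowered gene. Other genes share no stretch of 75 bases with its transcript. Of the 16 protein-coding genes of elongation and termination in the annotation, EEF2 was the only one listed.

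Of the 6 listed genes with an initiation factor symbol, 5 were called lower and 1 higher, beside 47.2% and 52.2% of all genes tested. The median log2 fold change of the 6 was −1.15. Core initiation factors were few among them. EIF2D, which can deliver initiator tRNA to the small subunit and takes part in ribosome recycling, was 797, 733 and 754 normalized counts in Scramble and 234, 241 and 231 in shOGT (log2 fold change −1.69, SE 0.10). EIF2B2, a subunit of the exchange factor that recharges eIF2 with GTP, was 424, 433 and 398 in Scramble and 176, 232 and 176 in shOGT (−1.11, SE 0.14). EIF1AD, named for a domain it shares with the initiation factor EIF1A, was the exception: 443, 455 and 418 in Scramble and 1093, 1095 and 1032 in shOGT (1.29, SE 0.09). The libraries of EIF2D and EIF1AD were tight in both groups, and of EIF2B2 26.3% of the 75-base stretches occur in transcripts of genes on the opposite strand.

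The other 3 genes of this group act on initiation factors rather than as one. EIF4EBP1 and EIF4EBP2 encode the proteins that bind the cap-binding factor EIF4E and hold back cap-dependent translation until mTORC1 phosphorylates them. EIF4EBP1 was 915, 766 and 695 normalized counts in Scramble and 124, 94.3 and 104 in shOGT (log2 fold change −2.87, SE 0.15). EIF4EBP2 was 2674, 2672 and 2614 in Scramble and 1193, 1489 and 1270 in shOGT (−1.02, SE 0.09). Both repressors were lower, EIF4EBP1 to 13.6% and EIF4EBP2 to 49.6% of the Scramble mean. Per kilobase, EIF4EBP1 was the more abundant in Scramble (738 against 366 for EIF4EBP2). EIF2AK2, which encodes PKR, the kinase that phosphorylates eIF2α on sensing double-stranded RNA, was 2191, 2622 and 2591 in Scramble and 1060, 1149 and 1004 in shOGT (−1.20, SE 0.10). EIF4EBP2 was no longer called without shOGT library 4 (−0.95) or without shOGT library 6 (−0.99).

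Of the 10 genes with a ribosome biogenesis symbol, 8 were called lower and 2 higher, beside 47.2% and 52.2% of all genes tested. The median log2 fold change of the 10 was −1.39. The lower genes cover several steps of the pathway. TCOF1 encodes treacle, a nucleolar protein needed for transcription of ribosomal DNA, and was 3098, 2948 and 2601 normalized counts in Scramble and 857, 826 and 714 in shOGT (−1.85, SE 0.10). NOLC1, which accompanies snoRNA particles and binds treacle, was 4480, 5057 and 4788 in Scramble and 1729, 1701 and 1787 in shOGT (−1.46, SE 0.08). Each shOGT library lay below each Scramble library for both partners, but the groups were apart in 99.5% of all genes tested.

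The catalytic subunits of both classes of snoRNA particle were lower as well. FBL, fibrillarin, methylates ribosomal RNA in box C/D particles and was 3411, 3157 and 2931 in Scramble and 1206, 1222 and 1380 in shOGT (−1.32, SE 0.09). DKC1, dyskerin, makes pseudouridine in box H/ACA particles and also belongs to telomerase, and was 5683, 6441 and 6101 in Scramble and 2763, 2829 and 2957 in shOGT (−1.09, SE 0.08). RRP7A (−1.65, SE 0.14) and NOL6 (−1.16, SE 0.11) encode proteins of the early small subunit precursor, and in RRP7A 19.2% of the stretches are shared with RRP7BP, SERHL and SERHL2.

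NOP53, which acts in the assembly of the large subunit, fell from 4053, 2878 and 2542 normalized counts to 576, 568 and 600 (−2.41, SE 0.14). Its Scramble libraries were uneven, with library 1 well above the others, and the shOGT libraries were nearly equal. NOL3 was lower too, at 692, 595 and 549 in Scramble and 113, 66.4 and 96.7 in shOGT (−2.75, SE 0.18). NOL3 meets the symbol rule as nucleolar protein 3 but is known as ARC, a repressor of apoptosis with a caspase recruitment domain, not as a ribosome assembly factor.

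The 2 genes that were higher were UTP3 and NOP2. UTP3, a component of the small subunit processome, was 437, 366 and 379 normalized counts in Scramble and 1002, 978 and 925 in shOGT (1.30, SE 0.10). NOP2, a methyltransferase of the large subunit RNA, was listed at very low counts, 12.4, 3.60 and 3.68 in Scramble and 18.9, 16.1 and 26.2 in shOGT (1.67, SE 0.47, adjusted p = 0.00354, limma). Of its 75-base stretches 88.5% also occur in the overlapping gene AC006064.6, so these reads cannot be assigned firmly to NOP2. Its log2 fold change was 2.18 without Scramble library 1 and 1.41 without Scramble library 2.

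MYC, beside these genes, was 4476, 5101 and 4809 normalized counts in Scramble and 2251, 1970 and 2665 in shOGT (−1.07, SE 0.11). It was −0.97 and no longer called without shOGT library 5. By quantitative PCR, the study found no significant decrease of MYC mRNA in OGT-depleted HT-29 cells, whereas the protein was lower. The difference between these RNA measures was not tested.

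**Figure D3:**
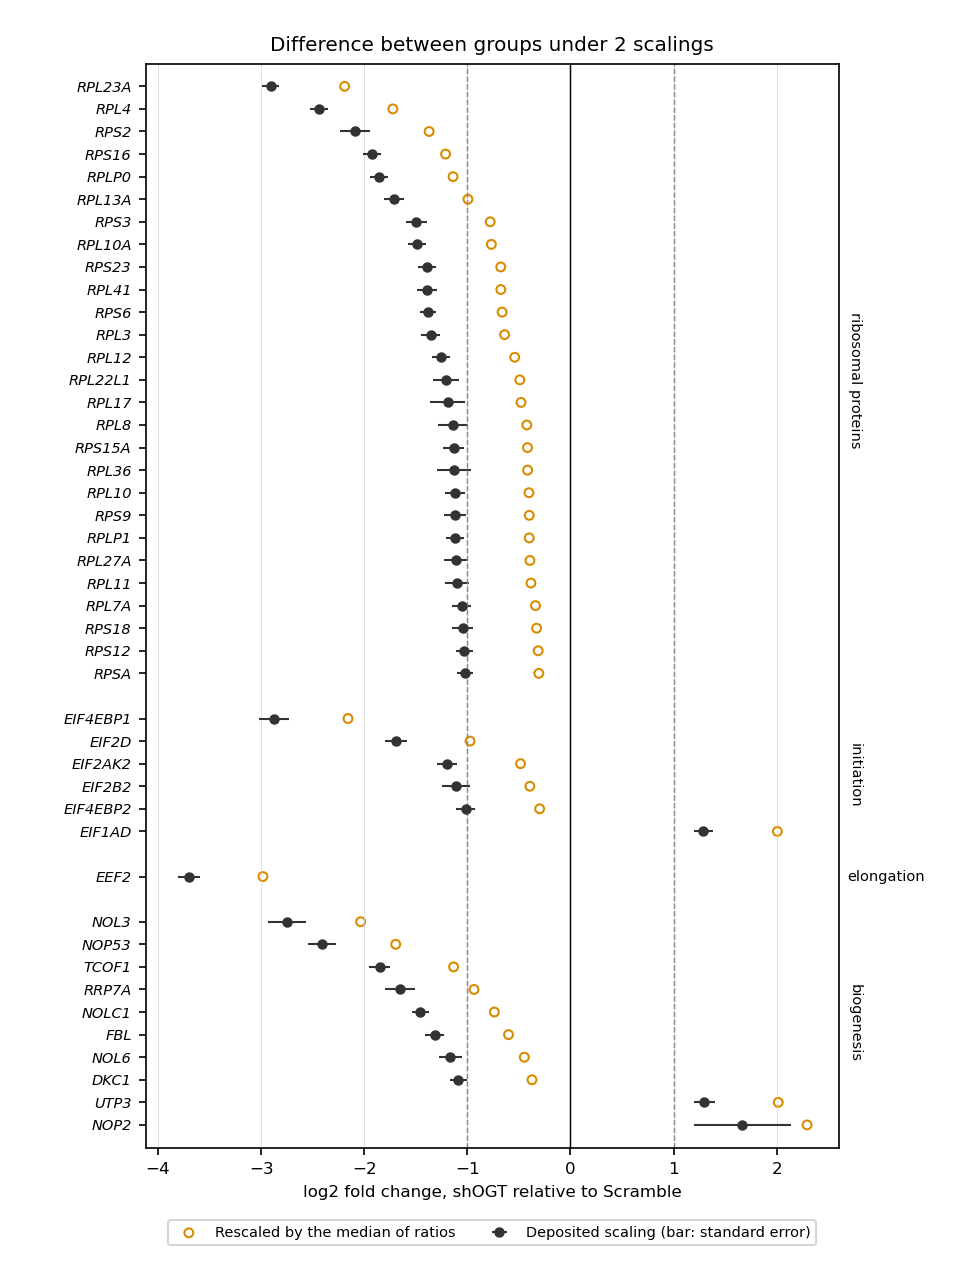
log2 fold change of 44 of the 46 genes, shOGT relative to Scramble, with 0 as a solid line and a 2-fold change as dashed lines. Filled points with standard error bars use the deposited scaling; open circles follow a rescaling of the libraries (median of ratios, listed genes), which shifts every point to the right. EEF2 (−3.70) and RPL23A (−2.91) lie far to the left under both, and RPSA (−1.02) lies at the 2-fold line under the deposited scaling.

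The size of these falls moved with a rescaling on the listed genes, which hold no unchanged ones to set the scale. The libraries were set to a common median of ratios among listed genes with reads in every library. The median of all genes then moved up by 0.71 on the log2 scale. After this rescaling, 10 of the 46 genes were still called lower and 3 higher, beside 19.2% of all genes tested called lower and 52.5% called higher. The 10 were EEF2 (−2.98), RPL23A (−2.19), EIF4EBP1 (−2.16), NOL3 (−2.03), RPL4 (−1.72), NOP53 (−1.69), RPS2 (−1.37), RPS16 (−1.21), RPLP0 (−1.14) and TCOF1 (−1.13). The 3 were NOP2 (2.29), EIF1AD (2.01) and UTP3 (2.01). The other 33 kept a negative sign, which the 2-fold limit of the table together with a shift of 0.71 fixes, and the ribosomal protein genes then had a median of −0.49. MYC moved to −0.35. Under TMM, another scaling computed over the listed genes, all 46 genes kept their call. Which scaling is right was not tested.

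What the ribosomal protein genes share beyond their symbols was read from sequence. Promoter windows around RefSeq transcription starts (build GRCh38.p14) were found for 37 of the 46 genes, 23 of them ribosomal protein genes. A C followed by at least 4 pyrimidines, C or T on the gene strand, occurred between 5 bases before and 20 bases after the start in 22 of these 23 genes (95.7%). The share was 37.5% of 27305 genes with a promoter in the reference and 40.2% of 3364 genes of the table, 41.0% of the lower and 39.1% of the higher ones. Among the biogenesis genes 4 of 8 held such a run, among the initiation factor genes 3 of 5, and EEF2 held one. A gene with several starts was counted if any of them held a run, as for RPL10. The run need not begin at the annotated start: it began 5 bases before it in RPL7A and at base 6 in RPL4. The E-box CACGTG, a palindrome searched in all 300 bases, occurred in 5 of the 37 genes (13.5%), beside 8.77% of all genes and 12.2% of the table. Its 5 genes were RPL13A, EIF2AK2, FBL, NOL6 and NOP2.

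The windows below show lower genes that hold the run, not those without it, and the 3 genes that were higher, which hold none. Of the genes of the table with a promoter, the run was in 41.0% of the lower and 39.1% of the higher ones. Each window is the gene strand from 12 bases before the RefSeq start to the 18th base of the transcript, with the run in capitals where there is one.
RPS16, chromosome 19, 39435932 to 39435961, minus strand: gcccctagCTTTCCTTTTCCggttgcggcg
RPLP0, chromosome 12, 120201094 to 120201123, minus strand: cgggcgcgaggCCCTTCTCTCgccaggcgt
RPS6, chromosome 9, 19380219 to 19380248, minus strand: cggaagttggCCCTCTTTTCCgtggcgcct
RPS3, chromosome 11, 75399506 to 75399535, plus strand: cgcgagccaCTTCCTTTCCTTTCagcggag
RPSA, chromosome 3, 39406708 to 39406737, plus strand: cctgccgcctgtCTTTTCCgtgctacctgc
EEF2, chromosome 19, 3985446 to 3985475, minus strand: gacgtcagcgttCTCTTCCgccgtcgtcgc
EIF2D, chromosome 1, 206612448 to 206612477, minus strand: ttccagccgggCCCTTTTCgcggccgggcc
FBL, chromosome 19, 39846362 to 39846391, minus strand: cgcgcctgcgCTCTTTTCCacgtgcgaaag
NOP53, chromosome 19, 47745534 to 47745563, plus strand: agtggctgagttCTTCCTTTgacaagatgg
EIF1AD, chromosome 11, 66002140 to 66002169, minus strand: gacagcgccggaagtacggttttcggaggg
UTP3, chromosome 4, 70688520 to 70688549, plus strand: agaggaaattccagtagccgatcaggagtc
NOP2, chromosome 12, 6568274 to 6568303, minus strand: tggaacgattctgtggcgagtgccggccga

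Genes with the run were found at large and small falls, from EEF2 at −3.70 and RPS16 at −1.93 to RPSA at −1.02. No window was found for RPL23A, RPS2, EIF4EBP1 and TCOF1 among others, so the run was not examined in these strongly lowered genes. The 3 genes that were higher held none, and neither did RPL17, EIF2B2, NOL6 and DKC1, which were lower. A match describes these letters near an annotated start and was linked to no factor.

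A snoRNA gene (or its Cajal body kin, a scaRNA) lies inside 15 of the 29 ribosomal protein genes (51.7%), inside EEF2, and inside 2 of the 10 biogenesis genes, NOP53 and DKC1. For all 46 genes the share was 39.1%, beside 1.53% of the 4129 protein-coding genes of the table. RPL4 hosts SNORD16 and the SNORD18 family, RPL7A hosts SNORD24 and the SNORD36 family, RPL13A hosts SNORD32A, SNORD33, SNORD34 and SNORD35A, and EEF2 hosts SNORD37. RPLP0, RPS16 and RPS6, which were also lower, host none. Ribosomal protein gene models were also short, with a median length of 2659 bases beside 4656 for the protein-coding genes of the table.

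**Figure D4:**
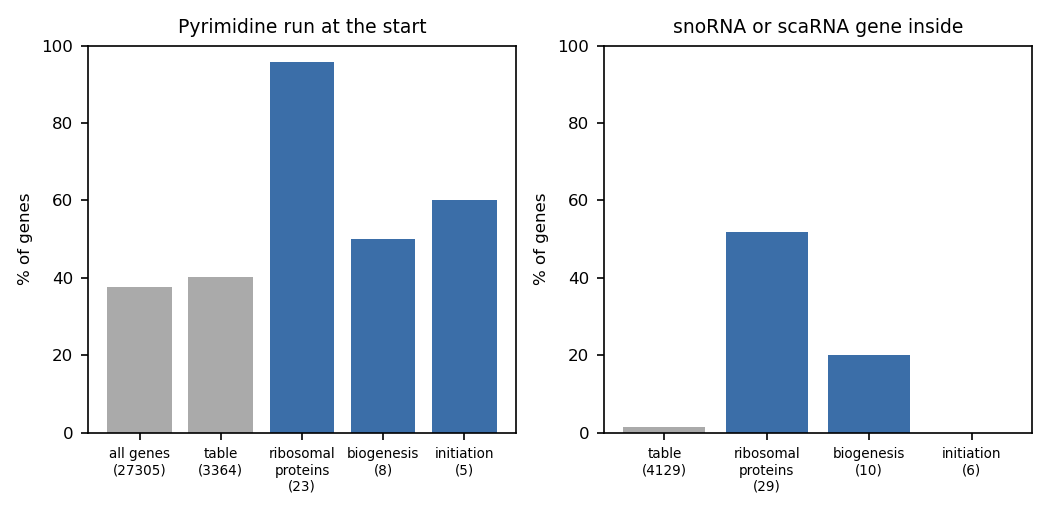
Percent of genes with a pyrimidine run near the start (left) and percent with a snoRNA or scaRNA gene inside (right). The number of genes is under each bar. Grey bars are all genes with a reference promoter or all genes of the table and blue bars are the groups described; the run is in 95.7% of ribosomal protein genes beside 37.5% of all genes, and a snoRNA in 51.7% beside 1.53% of the table.

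Many ribosomal protein genes have processed pseudogenes, copies of the spliced mRNA elsewhere in the genome, so part of their reads can match more than 1 place. In 11 of the 29, over 25% of the 75-base stretches of the transcript also occur in another gene, with 66.3% for RPL10, 65.6% for RPL17, 60.4% for RPSA, 54.1% for RPS2 and RPL13A and 53.3% for RPL23A. In 3 of the 29, RPL8, RPL11 and RPL22L1, no stretch is shared. The 11 genes with less than 10% shared had a median log2 fold change of −1.14 and the other 18 a median of −1.31. The part of shared sequence in these falls was not tested. Of the exon bases of RPL10, 52.7% are covered by DNASE1L1 and AC245140.2 together on the opposite strand, and of those of RPL17, 32.7% are covered on the same strand by the readthrough gene RPL17-C18orf32 and the hosted SNORD58 genes together.

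The table lists 20 pseudogenes named for these ribosomal protein genes. Of these, 13 were lower and 7 higher in shOGT, beside 47.2% and 52.2% of all genes tested. The 13 had Scramble means of 36.7 to 1677 normalized counts. RPLP0P6 went from 1195 to 267 (−2.16), close to the −1.86 of RPLP0, and RPS2P46 and RPS2P5 went from 1518 to 424 and from 1499 to 447 (−1.86 and −1.73, beside −2.09 for RPS2). The 7 that were higher were sparse, with Scramble means up to 12.3 and shOGT means up to 39.1. Whether reads of the parent genes were counted in the pseudogenes was not tested.

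Genes of ribosome assembly outside the symbol rule gave a mixed picture. Of 138 written, 16 are listed, 11 lower and 5 higher, beside 47.2% and 52.2% of all genes tested. The median of the 16 was −1.08. The lower ones hold parts of RNA polymerase I transcription: UBTF, the factor that binds ribosomal DNA (645, 501 and 453 in shOGT against 1437 to 1635 in Scramble, −1.56), POLR1A, the largest polymerase I subunit (1919 ± 63.2 to 689 ± 24.6, SD, n = 3 each, −1.48), and, at a smaller fall, TAF1D (−1.04). RSL1D1, a nucleolar protein, was the lowest of the list (−1.61), AAMP was at −1.38, and NHP2, a partner of dyskerin in H/ACA particles, was at −1.20. DCAF13, which acts in making the small subunit, was higher (1.33), and so were SPATA5L1 (1.33), EXOSC4 (1.14) and RIOK3 (1.06, and 0.95 without shOGT library 6). After rescaling, none of the 11 passed a 2-fold fall, beside 19.2% of all genes tested called lower.

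Of 53 genes written as acting on the translation machinery, 19 are listed, 10 higher and 9 lower, beside 52.2% and 47.2% of all genes tested. The median log2 fold change of the 19, 1.001, was that of LARP4, the smallest rise among them, and describes no typical change. The 2 listed genes of selenocysteine insertion were lower: EEFSEC, the elongation factor of that codon (528 ± 57.5 to 84.9 ± 22.0, −2.65), and SECISBP2, which binds the insertion element (−1.45). DENR, whose complex resembles EIF2D, was lower as well (−1.31). All 4 CPEB genes, which bind cytoplasmic polyadenylation elements, were higher, led by CPEB2 (296 ± 37.4 to 2594 ± 292, 3.13) and followed by CPEB3 (1.54) and CPEB4 (1.14). CPEB1 had no read in any Scramble library and 10.5, 1.07 and 9.11 normalized counts in shOGT, at least 2.55-fold higher over the group against a floor of 3 reads per library. Kinase paralogs moved apart: RPS6KB1, S6 kinase 1, was higher (1.21) and RPS6KB2 lower (−1.15), and of the kinases of EIF4E, MKNK1 was higher (1.16) and MKNK2 lower (−1.73). HBS1L and PELO, the pair that frees stalled ribosomes, were both higher (1.17 each). PAIP2B, an inhibitor of poly(A)-binding protein, was lower (−1.37).

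Most listed noncoding hosts of snoRNAs were lower. Of 24 written, 11 are listed, 10 lower and 1 higher, beside 47.2% and 52.2% of all genes tested. The median log2 fold change of the 11 was −1.40. SNHG8 went from 912 ± 80.0 to 218 ± 37.1 normalized counts (SD, n = 3 each, −2.07), GAS5 from 3888 ± 174 to 1040.2 ± 58.1 (−1.90), SNHG7 from 871 ± 140.0 to 260.0 ± 59.1 (−1.75) and SNHG16 from 746 ± 59.8 to 231 ± 22.4 (−1.69). ZFAS1 was lower too (−1.35), and CYTOR was higher (1.35). A pyrimidine run near the start occurred in 6 of these 11 genes (54.5%).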

How the data were processed

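RNA-seq of HT-29 cells was examined in 3 Scramble and 3 shOGT libraries, grouped by their titles. The deposited signal values are normalized counts made by the authors. Low values were whole multiples of 1 step per library, so read counts were recovered for 100% of values (tolerance 0.02), with size factors from 0.879 to 1.13. The authors' log2 fold changes, p-values and group means were deposited alongside, and served only to find the limits that listed genes had passed. The submitters' processing notes name cutadapt 1.9, HISAT2 2.0.4, UMI-tools, StringTie 1.3.4d, DESeq2 and edgeR without roles. They give a mouse genome build, whereas all 5681 genes matched the positions of GENCODE 29 on GRCh38. The labels (oligo(dT) capture, dUTP, molecular identifiers) and the study's methods (a strand-specific SureSelect kit) differ on library preparation, and whether counting used strand is not given in the sources used here.

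limma 3.58.1 (trend, R 4.3.3) modelled log2(normalized count + 1) by group alone, for the 5671 genes reaching a value of 1 in 3 or more libraries. This scale understates changes of low genes. Alternatives were rescaling by the median of ratios, a pseudocount of 0.1, no filter, a mean of at least 5, edgeR 4.0.16 and DESeq2 1.42.0 on recovered reads, TMM, and each library left out. The scripts were tested on simulated data. Where a group had no read, folds were set against 3 reads per library, which covers counting error only. Shared stretches (75 bases) and exon overlaps came from GENCODE 29.

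The rule named every ribosomal protein gene (2 are not reported here by name, but count in all totals), with up to 8 genes per direction in the other groups and up to 4 in the other lists. TAF1D, NHP2, DENR, CPEB4, RPS6KB2, MKNK1, HBS1L, PELO, ZFAS1 and the pseudogenes were added after their values were seen. The members and lists were chosen with earlier results of these data known. Unlisted genes were not analysed here.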

Additional observations from a re-analysis of the deposited data

How the results depend on the processing

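All 46 genes kept their call with a pseudocount of 0.1, without the filter, with a mean of at least 5, with edgeR under either scaling and with DESeq2. Rescaling by the median of ratios left 5 ribosomal protein genes called lower (median log2 fold change −0.49), 1 initiation factor gene (median −0.44) and 3 biogenesis genes (median −0.67). It left 0 of the other assembly genes and 1090 of all 5671 genes tested (19.2%) called lower, and moved EEF2 to −2.98. The listed genes hold no unchanged ones to set the scale. Leaving out 1 library in turn gave medians of −1.33 (without shOGT library 4) to −1.16 for the ribosomal protein genes, and 24 to 29 of them called lower. Of the 46 genes, 8 lost their call without at least 1 library, the smallest fall then being −0.95 on the log2 scale. The matching share of all genes tested is not given here. No value changed sign. No paired analysis was possible because the labels number the libraries 1 to 3 in Scramble and 4 to 6 in shOGT, so that the groups share no number. Counts near 10 or lower, as for NOP2, limit what depth can show.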
